A study of Mus musculus with 8 samples.

Results

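The immediate early and dissociation stress genes, Fos, Fosb, Jun, Junb, Jund, Egr1, Atf3, Ier2, Dusp1 and Klf6, were read out of the deposited FPKM table by gene symbol. All 10 were found among 17589 genes, and 9 of the 10 reached the mean of 1 FPKM over all 8 libraries that was required for a test. FPKM count sequenced fragments relative to transcript length and library size. The samples were KDM1A KO spermatogonia (4 libraries) and Control spermatogonia (4 libraries), all from C57BL/6 mice 6 days after birth that carried the GOF/deltaPE-Oct4/GFP reporter and all sorted for GFP. The labels' protocol calls the knockout Kdm1a-cKO, and the deleted part, any Cre driver and the alleles of the controls were not stated. Testes of both groups had the same preparation before the sort: 10 minutes in collagenase B and 5 minutes in trypsin-EDTA, both at 37°C. No label says that each library is a separate animal, so p-values measure the spread between these samples, and that spread may be technical.

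Immediate early genes are transcribed within minutes of a stimulus without new protein synthesis, mostly through serum response factor (SRF) with its ternary complex partners of the ELK family and through CREB. FOS and JUN proteins pair as AP-1, a transcription factor of the basic leucine zipper class, and EGR1, ATF3, IER2 and KLF6 are further nuclear products of the same response. DUSP1 is a phosphatase that switches off the MAP kinases that started it. Enzymatic digestion of solid tissue at body temperature is a well known trigger of this programme in sorted cells.

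The knockout libraries carried less of the targeted transcript. Kdm1a, the histone demethylase gene, averaged 15.1 ± 1.49 FPKM in KO and 61.9 ± 20.2 FPKM in control libraries (SD, n = 4 each; limma, adjusted p = 6.88e-05). Sequencing depth, worked out from the spacing of low FPKM values, was about 45550000 to 63375000 fragments in KO and 60925000 to 67125000 fragments in control libraries. KO replicate 2 stood apart: 1642 of its transcripts were at 0, and the other 7 libraries had 506 to 734 such entries, and genes with transcripts under 1000 bases lay a median of 0.26 above the KO mean on the log2 scale, while those of 3000 bases or more lay 0.12 below. The 15 germ cell markers summed to 2020 to 2640 FPKM in KO and 2150 to 2310 FPKM in control libraries. Their mean log2 level was lower in every KO library, 6.14 to 6.38, against 6.49 to 6.58 in control libraries. By limma 4 of the 15 fell (Lin28a, Zbtb16, Sall4 and Nanos3), 2 rose (Sohlh2 and Tex101) and 9, among them Ddx4 and Dazl, were not called. That is 26.7% lower and 13.3% higher, against 12.1% and 25.3% over all genes. The 14 Sertoli markers summed to 158 to 192 FPKM in KO and 76.3 to 128 in control libraries. Ctsl alone carried the separation of these sums: without it they were 30.4 to 78.9 in KO and 22.0 to 67.1 in control libraries. Of the 11 Sertoli genes tested by limma, 2 rose, 0 fell and 9 were not called. The rises were 18.2%, against 25.3% over all genes. The median log2 change of the 11 was 0.64, against 0.09 over all genes. The endothelial list, of which 8 of 10 genes were in the table, summed to 14.3 to 14.8 FPKM in KO and 6.14 to 8.85 in control libraries. Pecam1 and Tek carried it, and the other 6 genes summed to 5.1 to 6.25 FPKM in KO and 4.02 to 6.13 in control libraries. The peritubular and stromal list, 12 of 13 genes in the table, ran the other way at 26.7 to 32.3 FPKM in KO and 37.7 to 55.9 in control libraries, which without Col1a1 became 10.8 to 16.9 and 8.12 to 30.0 FPKM. By the exact two-sided permutation test on mean log2 levels, adjusted over 7 marker lists, the germ and endothelial differences each had p = 0.0667, the Sertoli one p = 0.2 and the peritubular and stromal one p = 0.971, and the smallest unadjusted p that the design allows is 0.0286. Of the 14 Sertoli genes, Sox9, Fshr and Gata1 were below 1 FPKM in every library. The other 11 averaged 1 FPKM or more and are those tested above.

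Of the 9 genes tested, Ier2 rose, Jund fell and 7 were not called, by limma on log2(FPKM + 1) with Benjamini-Hochberg adjustment over 13483 genes at 0.05. Over all genes tested, 25.3% were called higher and 12.1% lower in KO, so 1 call in each direction among 9, or 11.1%, is below the background for rises and near it for falls. The median log2 change of the 9 was 0.36, against 0.09 over all genes. The same 2 genes were those whose KO and control libraries did not overlap, with KO above for Ier2 (26.1% of all genes) and below for Jund (12.5%), 38.6% of all genes in either direction. The mean log2 level was higher in KO for 7 of the 9, against 59.7% of all genes. In bulk RNA such as this, fewer cells of a type and less RNA per cell cannot be told apart.

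The direction of these results depends in part on how libraries are scaled. The single microRNA entry Mir5105 made up 29.4% to 52.7% of all FPKM in KO libraries and 61.3% to 77.1% in control libraries. Over all genes, 3417 rose and 1635 fell as deposited. Scaling every library to an equal total gave 9549 and 151 of 13483 genes, with a median log2 change of 0.74. There 7 of the 9 members rose and 0 fell by limma (0 lower at an unadjusted p under 0.05). Median-ratio scaling gave 2388 and 2766, quantile normalization 2655 and 2648, and removal of small RNAs before equal totals 2241 and 1800.

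**Figure D1:**
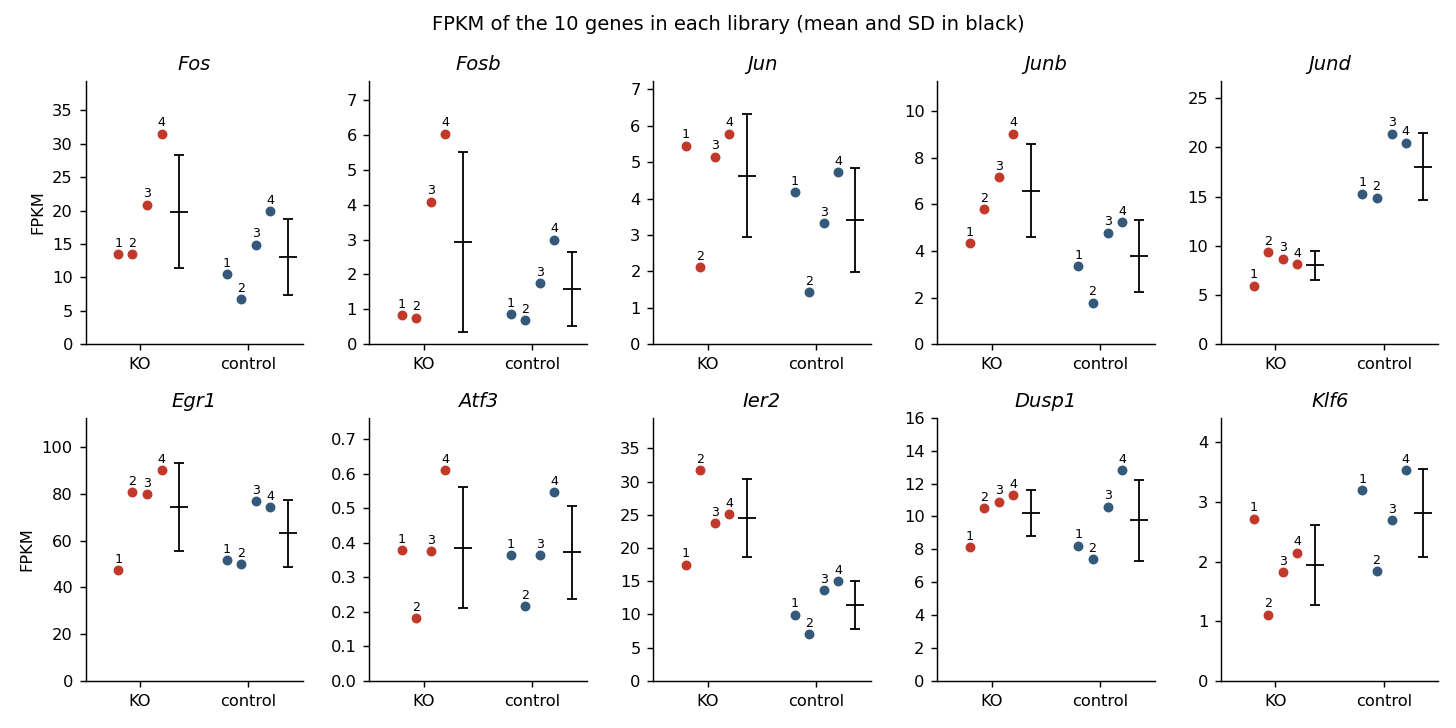
FPKM of the 10 genes in each library, with KO to the left of control, replicate numbers beside the points, and the mean ± SD in black (n = 4 per group). Each axis starts at 0 and has its own scale. The 4 KO libraries lie above all 4 controls for Ier2 and below all 4 for Jund, and overlap them for the other genes.

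**Figure D2:**
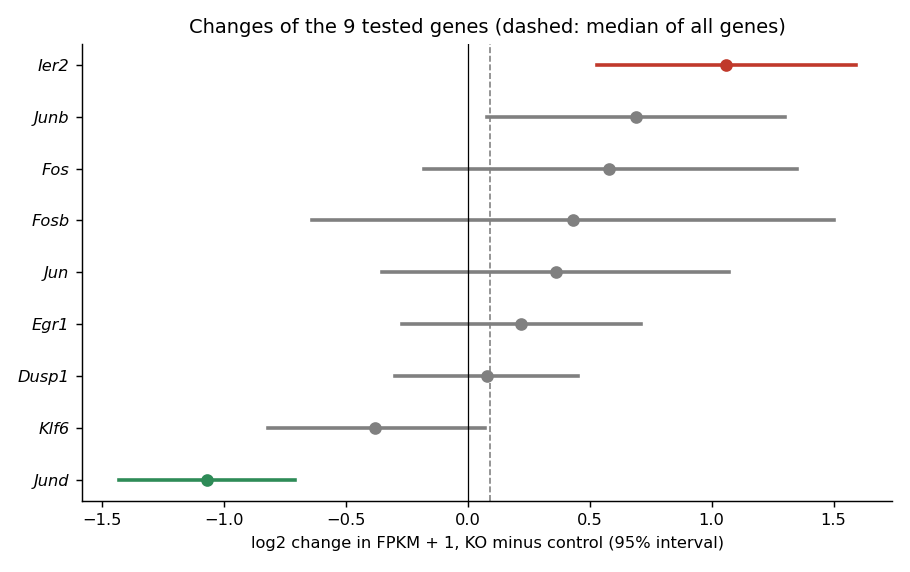
Log2 change of FPKM + 1, KO minus control, with the 95% interval from limma, for the 9 tested genes in order of the change. The dashed line marks the median of all genes, 0.09. Ier2 at 1.06 and Jund at -1.07 were called, and the intervals of Fosb and Fos were the widest.

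By level per kilobase, Egr1 was the most abundant of the 10 in every library of both groups and Atf3 the least. Egr1 averaged 74.4 ± 18.7 FPKM in KO and 63.1 ± 14.3 in control libraries, and its lowest library in either group was above the highest library of any other member. Below it the order in KO was Ier2, Fos, Dusp1, Jund, Junb, Jun, Fosb and Klf6, against Jund, Fos, Ier2, Dusp1, Junb, Jun, Klf6 and Fosb in control. The libraries of neighbours in these orders overlapped with few exceptions. Egr1 stood clear at the top and Atf3 at the bottom in both groups, Fos lay above Dusp1 in all KO libraries, and Dusp1 lay above Junb in all control libraries. Jund was the second most abundant member in control and the fifth in KO.

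The FOS genes varied widely between libraries of both groups. Fos, the founding FOS gene (chromosome 12 from 85473890 to 85477273, plus strand, GRCm38), was at 13.5, 13.5, 20.9 and 31.5 FPKM in KO replicates 1 to 4. It was at 10.5, 6.79, 14.9 and 19.9 FPKM in control replicates 1 to 4. The groups overlapped, and in each of them replicates 3 and 4 were the higher pair. The means were 19.8 ± 8.52 in KO and 13.0 ± 5.67 in control libraries (log2 change 0.58, 95% interval -0.18 to 1.35, adjusted p = 0.208). The protein-coding transcript held nearly all of this, while a processed transcript without a coding frame stayed below 1 FPKM in every library.

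Fosb, whose product can replace FOS in AP-1, varied most of all. It was at 0.828, 0.761, 4.09 and 6.04 FPKM in KO replicates 1 to 4, against 0.862, 0.696, 1.76 and 3.0 FPKM in control replicates 1 to 4. The highest library was 7.93 times the lowest within KO and 4.31 times within control. The change was not called (log2 change 0.43, 95% interval -0.64 to 1.5, adjusted p = 0.509). The Fosb transcript has 3782 bases, and long transcripts ran low in KO replicate 2. The log2 change was 0.73 without KO replicate 2 (adjusted p = 0.229) and 0.26 without control replicate 2 (adjusted p = 0.747). These Fosb values corresponded to about 126 to 1060 fragments in KO and 160.3 to 663 in control libraries, so counting error was small beside the spread. The residual SD of Fosb within groups, 0.83 on the log2 scale, lay at percentile 99.2 of all genes tested, that of Fos at 98.2, Jun at 97.8 and Junb at 96.7.

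The promoters of Fos, Fosb, Junb and Dusp1 are shown because they hold TGACG, the core of the element that CREB binds, on the gene's strand, and they were chosen with that match known. The windows are the 250 bases before the RefSeq start in GRCm38.p6, from 5′ to 3′ on the gene's strand, with TGACG, or the full element TGACGTCA, in capitals.
Fos (chr12:85473640-85473889, plus strand): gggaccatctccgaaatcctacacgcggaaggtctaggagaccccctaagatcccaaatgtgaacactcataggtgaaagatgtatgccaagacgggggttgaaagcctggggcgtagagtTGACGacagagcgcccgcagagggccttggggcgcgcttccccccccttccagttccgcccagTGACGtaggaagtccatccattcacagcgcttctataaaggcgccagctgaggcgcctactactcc
Fosb (chr7:19310046-19310295, minus strand): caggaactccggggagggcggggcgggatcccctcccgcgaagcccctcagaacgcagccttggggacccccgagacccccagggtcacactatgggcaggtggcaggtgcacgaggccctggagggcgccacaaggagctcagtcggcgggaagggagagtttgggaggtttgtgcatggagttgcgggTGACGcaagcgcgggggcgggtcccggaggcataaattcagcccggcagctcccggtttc
Junb (chr8:84978749-84978998, minus strand): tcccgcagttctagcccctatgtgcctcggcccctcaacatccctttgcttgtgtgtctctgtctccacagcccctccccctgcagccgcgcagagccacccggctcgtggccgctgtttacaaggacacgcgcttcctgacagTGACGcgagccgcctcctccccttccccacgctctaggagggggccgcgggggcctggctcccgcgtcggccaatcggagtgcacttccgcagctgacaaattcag
Dusp1 (chr17:26508473-26508722, minus strand): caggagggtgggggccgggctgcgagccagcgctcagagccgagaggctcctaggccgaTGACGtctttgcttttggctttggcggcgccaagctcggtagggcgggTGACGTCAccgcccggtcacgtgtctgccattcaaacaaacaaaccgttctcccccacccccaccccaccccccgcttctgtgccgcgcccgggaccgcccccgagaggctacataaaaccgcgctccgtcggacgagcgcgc
Windows of 8 of the 10 genes were searched on both strands. Ier2 had no window, and Egr1 was left out of the search by choice. The counts below therefore say nothing about Egr1 or Ier2, including whether either holds a CArG box. The core TGACG was in 5 of the 8, namely Atf3, Dusp1, Fos, Fosb and Junb, and in 17.8% of 32851 windows of the same length. The full element, which contains the core on both strands, was in Dusp1 only among the 8 and in 1.55% of all windows. Neither the AP-1 element TGANTCA, found in 6.75% of windows, nor the CArG box that SRF binds, found in 1.47%, was in any of the 8. Sequence outside these 250 bases was not searched, so elements there would be missed. The Jund window ends 1210 bases before the start of the Jund transcript measured here, so it does not show the sequence next to that start. The core was chosen after the sequences had been seen, and a match is a description of letters, not a site.

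Among the JUN genes the balance between members differed. Junb, an AP-1 subunit with weaker transforming activity than JUN (transcript on chromosome 8 from 84976910 to 84978718, minus strand, 1 exon), was at 4.33, 5.81, 7.19 and 9.04 FPKM in KO replicates 1 to 4. It was at 3.37, 1.79, 4.79 and 5.23 FPKM in control replicates 1 to 4. The KO values were mostly the higher ones, but KO replicate 1 lay below control replicates 3 and 4. The change was not called (log2 change 0.69, 95% interval 0.08 to 1.3, adjusted p = 0.0734). It was called without KO replicate 1 (0.85, adjusted p = 0.0403) or without control replicate 4 (0.84, adjusted p = 0.0498), and over the libraries left out in turn the adjusted p ran from 0.0403 to 0.173.

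Jun, the gene of the c-JUN protein (chromosome 4 from 95049034 to 95052222, minus strand, 1 exon), was at 5.45, 2.12, 5.15 and 5.78 FPKM in KO replicates 1 to 4. It was at 4.17, 1.44, 3.32 and 4.72 FPKM in control replicates 1 to 4. Replicate 2 was the lowest library in each group, and the groups overlapped (log2 change 0.36, 95% interval -0.35 to 1.07, adjusted p = 0.404). The main Jun transcript has 3189 bases, and long transcripts ran low in KO replicate 2. The log2 change was 0.62 without KO replicate 2 (adjusted p = 0.0839) and 0.10 without control replicate 2 (adjusted p = 0.819). The antisense gene BC042782, called Junos in GENCODE, runs away from Jun and shares 232 exon bases with it. BC042782 was at 2.32, 4.17, 2.43 and 2.88 FPKM in KO replicates 1 to 4, against 0.909, 1.35, 1.57 and 1.9 FPKM in control replicates 1 to 4. All KO libraries lay above all controls (log2 change 0.69, adjusted p = 0.0123). BC042782 was named after its values were seen.

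Jund, the JUN gene that most cells express without a stimulus (chromosome 8 from 70698949 to 70700616, plus strand, 1 exon), fell. It was at 5.95, 9.36, 8.71 and 8.13 FPKM in KO replicates 1 to 4, against 15.3, 14.9, 21.4 and 20.5 FPKM in control replicates 1 to 4. The highest KO library was below the lowest control. The means were 8.04 ± 1.48 in KO and 18.1 ± 3.43 in control libraries, 2.25-fold lower (log2 change -1.07, SE 0.16, adjusted p = 0.000843). Without each library in turn the log2 change ran from -1.16 to -0.95 and the call stayed. With equal totals Jund was lower by less and not called (log2 change -0.41, adjusted p = 0.139).

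The Jund value cannot be taken apart from that of an antisense gene. Gm11175 lies within Jund on the other strand, from 70699538 to 70700080, and all 543 of its exon bases are also exon bases of Jund. Gm11175 was at 14.7, 23.9, 23.0 and 23.6 FPKM in KO replicates 1 to 4, against 40.9, 39.1, 57.8 and 53.2 FPKM in control replicates 1 to 4. The groups did not overlap (log2 change -1.13, adjusted p = 0.00117). The ratio of Gm11175 to Jund was 2.47 to 2.91 in KO and 2.59 to 2.69 in control libraries. The libraries were made with a stranded kit, but whether strand was used when fragments were assigned was not stated. Fragments of the 2 genes may therefore be split between them, and both entries fell. Gm11175 was named after its values were seen.

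As a share of the summed FPKM of Jun, Junb and Jund, Jund held 37.8%, 54.1%, 41.4% and 35.4% in KO replicates 1 to 4. It held 67.0%, 82.2%, 72.6% and 67.4% in control replicates 1 to 4. The shares did not overlap, and a factor applied to a whole library leaves them as they are, though they do depend on how fragments were split with Gm11175. Junb held 33.7 ± 4.87% in KO and 14.5 ± 3.24% in control libraries. The ratio of Junb to Jund was 0.821 ± 0.21 in KO and 0.204 ± 0.0585 in control libraries, and the sum of the JUN genes was 19.2 ± 3.31 and 25.2 ± 5.88 FPKM in KO and control. No test was run on these shares, which follow from the values above.

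**Figure D3:**
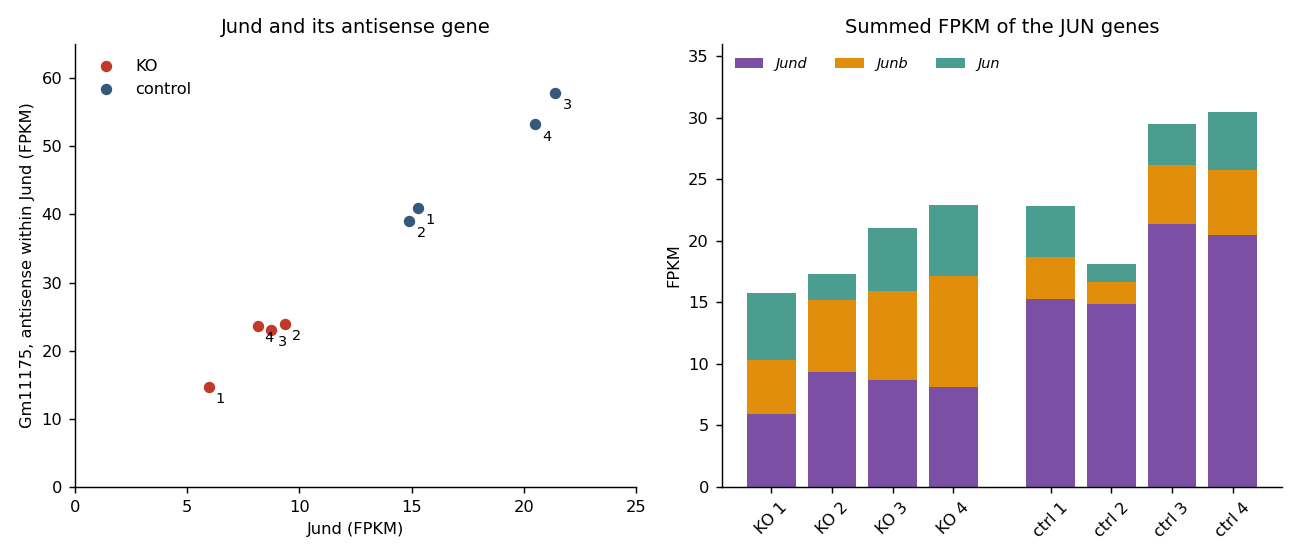
On the left, FPKM of Gm11175 against that of Jund, 1 point per library with its replicate number beside it, and the ratio between 2.47 and 2.91 in all 8. On the right, summed FPKM of Jund, Junb and Jun in each library, KO before control, where Jund makes up 35.4% to 54.1% of the sum in KO and 67.0% to 82.2% in control libraries.

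Ier2, a small nuclear protein of the early response (chromosome 8 from 84661331 to 84662852, minus strand, 1 exon), was the only member that rose. It was at 17.5, 31.7, 23.8 and 25.1 FPKM in KO replicates 1 to 4, against 9.97, 7.0, 13.7 and 15.0 FPKM in control replicates 1 to 4. The lowest KO library was above the highest control. The means were 24.5 ± 5.81 in KO and 11.4 ± 3.63 in control libraries, 2.15-fold higher (log2 change 1.06, SE 0.24, adjusted p = 0.00696). The highest library, KO replicate 2, is the one in which short transcripts ran high, and the 1522-base transcript of Ier2 lies between those classes, where the median of that library was 0.15 above the KO mean. Without any single library the log2 change was 0.87 to 1.21 and the call stayed (adjusted p 0.00475 to 0.0226). The sums of Sertoli and endothelial markers were also higher in KO, carried by Ctsl and by Pecam1 and Tek, while the peritubular and stromal sum was lower. The Sertoli genes tested had a median log2 change of 0.64, against 0.09 over all genes. The part of other cells in the rise of Ier2 was not tested.

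Egr1, a zinc finger transcription factor and a standard readout of ERK signalling, was at 47.2, 80.6, 79.8 and 90.0 FPKM in KO replicates 1 to 4. It was at 51.7, 49.8, 76.7 and 74.3 FPKM in control replicates 1 to 4. The groups overlapped, with KO replicate 1 the lowest of all 8 libraries (log2 change 0.22, 95% interval -0.27 to 0.71, adjusted p = 0.46). Of the 2 transcript entries, the same one held 96.4% to 97.1% of the Egr1 value in KO and 96.7% to 97.9% in control libraries.

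Dusp1, the MAP kinase phosphatase (main transcript on chromosome 17 from 26505590 to 26508519, minus strand), was at 8.13, 10.5, 10.9 and 11.3 FPKM in KO replicates 1 to 4. It was at 8.22, 7.39, 10.6 and 12.8 FPKM in control replicates 1 to 4. The ranges nearly coincided. Its log2 change was 0.08 (95% interval -0.3 to 0.45, adjusted p = 0.748), and the sign flipped under 3 scalings (quantile, median-ratio, small RNAs removed) and without control replicate 2, where the adjusted p was 0.794 to 0.896.

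Klf6, a zinc finger protein of the Kruppel-like family, was the other member with a lower KO mean. It was at 2.72, 1.11, 1.82 and 2.15 FPKM in KO replicates 1 to 4, against 3.2, 1.84, 2.7 and 3.53 FPKM in control replicates 1 to 4. The groups overlapped, and replicate 2 was lowest in each (log2 change -0.38, 95% interval -0.82 to 0.07, adjusted p = 0.162). Its transcript has 4225 bases, and KO replicate 2 is the library in which long transcripts ran low. The log2 change was -0.23 without KO replicate 2 (adjusted p = 0.311) and -0.51 without control replicate 2 (adjusted p = 0.0738). The sign flipped with equal totals, where the log2 change was 0.14.

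Atf3, a basic leucine zipper factor induced by many kinds of cell stress, was scarcely detected. It was at 0.379, 0.181, 0.375 and 0.61 FPKM in KO replicates 1 to 4, against 0.364, 0.217, 0.364 and 0.547 FPKM in control replicates 1 to 4. These were about 15.1 to 54.0 fragments in KO and 25.3 to 61.0 in control libraries. It did not pass the filter, and without a filter its log2 change was 0.01 (adjusted p = 0.947).

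The members tended to move together from library to library within each group. Control replicate 2 was the lowest control library for all 10 genes, and control replicate 4 the highest for 8 of 10. In KO, replicate 4 was the highest for 7 of 10, while replicates 1 and 2 were each the lowest for 5. For comparison, over all genes tested control replicate 2 was the lowest control library in 38.3% and control replicate 4 the highest in 29.0%, and KO replicate 4 was the highest KO library in 12.5%. KO replicates 1 and 2 were the lowest KO library in 35.2% and 37.0% of all genes, nearer to the 5 of 10 seen in the members. On the log2 scale, the mean departure of the 9 tested genes from their group was -0.31, -0.21, 0.16 and 0.36 in KO replicates 1 to 4. It was -0.11, -0.52, 0.2 and 0.42 in control replicates 1 to 4. The time from tissue to sort is not given for single libraries, and its part in this order was not tested.

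**Figure D4:**
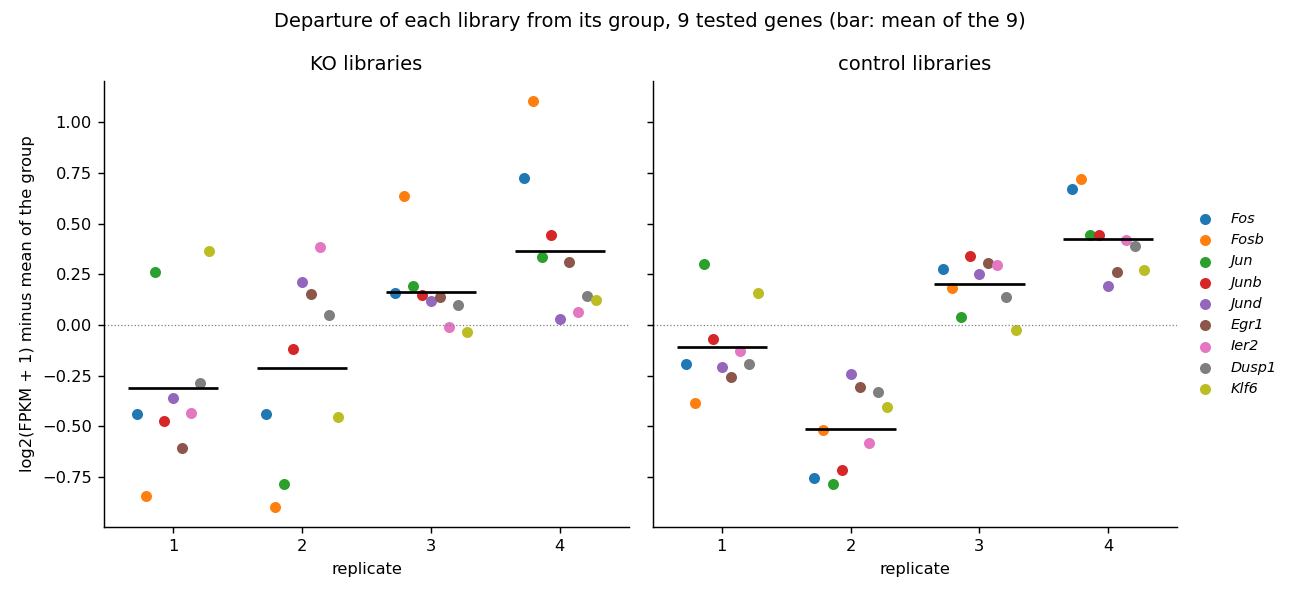
Departure of log2(FPKM + 1) from the mean of the group for the 9 tested genes, with KO libraries on the left and control libraries on the right and a bar for the mean of the 9. The bars are at 0.36 for KO replicate 4 and 0.42 for control replicate 4, and at -0.52 for control replicate 2, where all 9 genes lie below the mean.

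The genes outside the 10 whose departures were most like the members' mean departure, over the 8 libraries, were Tes3-ps (Pearson correlation 0.974), Slc25a46 (0.971), Cdh4 (0.971), Gm8399 (0.971) and Zfp946 (0.966). The coefficients describe 8 points that share their libraries and were picked as the highest of all genes tested. None of the 5 is a known immediate early gene, and their own residual SD was small, 0.09 to 0.16 on the log2 scale, against 0.26 to 0.83 for the members.

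Other genes of the same response were lower in KO more often than higher. Of 60 listed, 58 were in the table and 50 were tested: 16 fell, 7 rose and 27 were not called. That is 32.0% lower and 14.0% higher, against 12.1% and 25.3% over all genes, and the median log2 change was -0.11, against 0.09. With equal totals 0 fell by limma, 0 at an unadjusted p under 0.05, and 23 rose. Over all 13483 genes that scaling gave 9549 rises and 151 falls. Srf, the transcription factor on which much of the response depends, was at 8.15, 12.0, 9.57 and 10.5 FPKM in KO replicates 1 to 4, against 16.9, 17.3, 20.3 and 18.1 FPKM in control replicates 1 to 4. The groups did not overlap, and the fall was 1.80-fold (log2 change -0.80, adjusted p = 0.000744), though with equal totals it was not called (-0.13, adjusted p = 0.657). Arc, an early gene best known from neurons, fell to 6.18 ± 0.375 FPKM in KO, against 9.93 ± 1.12 in control libraries. Tiparp averaged 28.9 ± 1.16 and 37.7 ± 1.51 FPKM in KO and control libraries, and Irf1, an interferon-responsive factor, 36.4 ± 2.77 and 55.5 ± 8.38. Arc, Tiparp and Irf1 turned sign with equal totals.

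The genes that rose in that list were led by Plk2, a polo-like kinase, at 11.7, 9.85, 9.17 and 8.84 FPKM in KO replicates 1 to 4, against 4.86, 3.39, 4.11 and 4.14 FPKM in control replicates 1 to 4. The groups were well apart (2.39-fold, log2 change 1.09, adjusted p = 0.000152). Rhob, a small GTPase, averaged 19.5 ± 2.28 FPKM in KO and 10.5 ± 2.82 in control libraries, Id1, an inhibitor of helix-loop-helix factors, 4.77 ± 0.913 and 2.57 ± 0.266, and Nfkbiz 2.96 ± 0.311 and 1.55 ± 0.144. The counts moved with single libraries. Rises numbered 4 without KO replicates 3 or 4 or control replicates 1, 2 or 3, and falls 9 without control replicate 3 and 10 without KO replicate 3 or control replicates 1 or 4.

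**Figure D5:**
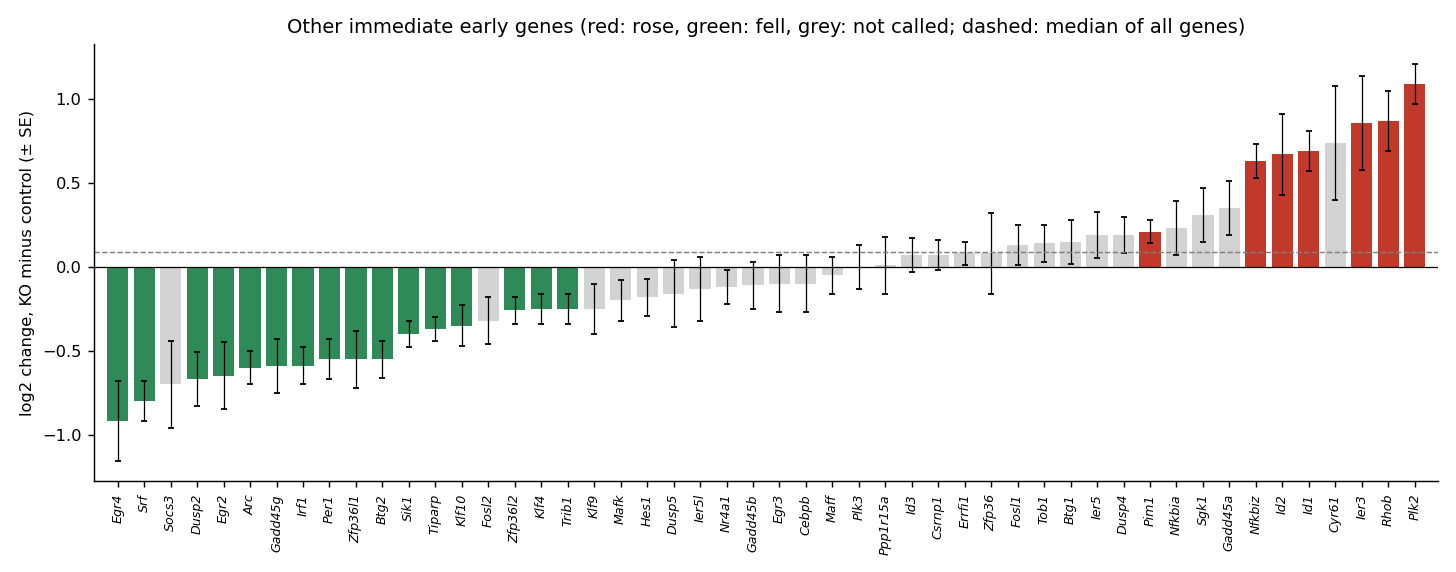
Log2 change of the 50 other immediate early genes tested, KO minus control, with SE bars, in order of the change. Of these, 16 fell (green), 7 rose (red) and 27 were not called (grey), and the dashed line marks the median of all genes, 0.09.

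Among 31 regulators of these genes, all in the table and 29 tested, 6 fell, 3 rose and 20 were not called. That is 20.7% lower and 10.3% higher, against 12.1% and 25.3% over all genes. With equal totals 16 rose and 0 fell, also at an unadjusted p under 0.05 in limma. Among all 13483 genes that scaling gave 9549 rises and 151 falls. Beside Srf, the falls were led by Map2k7, a kinase upstream of JNK, at 29.4 ± 0.797 FPKM in KO and 39.0 ± 1.58 in control libraries. Rps6ka1, an ERK-activated kinase, averaged 23.3 ± 1.57 and 31.5 ± 2.30 FPKM in KO and control libraries, and Elk1, a ternary complex partner of SRF, 7.50 ± 1.37 and 11.0 ± 0.364. Map2k7, Rps6ka1 and Elk1 turned sign with equal totals, and the calls of Map2k7 (log2 change -0.56, adjusted p = 0.0581) and Rps6ka1 (-0.22, adjusted p = 0.487) were lost when a gene was read from its most abundant transcript alone. Elk3, another ternary complex factor, rose to 2.53 ± 0.374 FPKM in KO, against 0.745 ± 0.184 in control libraries (log2 change 1.02, adjusted p = 0.000191). Mapkapk3, a kinase downstream of p38, averaged 4.22 ± 0.857 and 2.00 ± 0.645 FPKM in KO and control libraries. Crem, of the CREB family, averaged 5.47 ± 0.835 and 3.70 ± 0.789 FPKM in KO and control libraries, and lost its call without KO replicates 1, 2 or 3 or control replicates 1, 2 or 3 (adjusted p 0.0542 to 0.0938). The Crem call was also lost after median-ratio (adjusted p = 0.0774) and quantile scaling (0.15), small RNA removal (0.0782) and with the most abundant transcript alone (0.052).

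Of 17 tested genes for other AP-1 partners and relatives, 3 fell, 0 rose and 14 were not called by limma, with 0 higher and 4 lower at an unadjusted p under 0.05. That is 17.6% lower and 0% higher, against 12.1% and 25.3% over all genes. With equal totals 7 rose and 1 fell, against 9549 and 151 of all 13483 genes. Those that fell were Jdp2, which dimerizes with JUN proteins and represses AP-1 targets, Cebpg and Mafg. Jdp2 was at 0.79 ± 0.149 FPKM in KO and 2.46 ± 0.627 FPKM in control libraries (log2 change -0.93, adjusted p = 0.000885). Cebpg averaged 8.83 ± 1.51 and 15.3 ± 1.89 FPKM in KO and control libraries, and Mafg 27.6 ± 0.672 and 34.2 ± 1.68, and with equal totals Mafg turned sign and Cebpg was not called (log2 change -0.07, adjusted p = 0.8). The remaining FOS genes, chosen with their values in view, did not pass the test: Fosl1 averaged 2.19 ± 0.427 FPKM in KO and 1.90 ± 0.226 in control libraries, and Fosl2 3.18 ± 0.554 and 4.23 ± 0.718.

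Heat shock genes, which tissue dissociation also induces, did not move as a group in the values as deposited. Of 24 tested, 2 fell, 2 rose and 20 did not pass. That is 8.33% in each direction, against 12.1% lower and 25.3% higher over all genes. The median log2 change was 0.05, against 0.09 over all genes. With equal totals 20 of the 24 rose and 1 fell by limma, against 9549 and 151 of all 13483 genes. Hspb1, a small heat shock protein, was at 5.78, 5.87, 6.62 and 6.04 FPKM in KO replicates 1 to 4, against 3.05, 1.67, 1.63 and 1.96 FPKM in control replicates 1 to 4. All KO libraries were above all controls (log2 change 1.22, adjusted p = 0.000218). Cryab, of the same family, averaged 1.60 ± 0.361 FPKM in KO and 0.44 ± 0.103 in control libraries. The stress-inducible Hsp70 genes went the other way: Hspa1a averaged 0.997 ± 0.0966 FPKM in KO and 2.91 ± 0.315 in control libraries, and Hspa1b 3.45 ± 0.265 and 6.86 ± 0.573. Hspa1a and Hspa1b are near-identical copies, so the split between them is uncertain, but both entries fell, Hspa1b without a call when totals were made equal (log2 change -0.22, adjusted p = 0.415).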

How the data were processed

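RNA was measured by sequencing in 4 KO and 4 control libraries. The authors deposited FPKM per transcript. The build was mm10 and the tools were Bowtie, TopHat, Cuffdiff and Cufflinks, per the submitters' processing notes; their versions were not stated. All 45550 transcript entries were summed to 17589 genes by gene identifier. Positions came from GENCODE M21 on GRCm38, and promoters from RefSeq on GRCm38.p6.

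Genes that averaged 1 FPKM or more were tested on log2(FPKM + 1) by limma 3.58.1 in R 4.3.3 with an intensity trend, two-sided, group only, over all genes at once, with calls where the Benjamini-Hochberg adjusted p was under 0.05. This scale understates changes of low genes. Folds are ratios of mean FPKM. The script was tested on simulated data. Depth was taken as the value at which low FPKM of 7644 genes with a single entry gave most whole fragments: 59.7% to 65.7% of values of up to 20 fragments lay within 0.1 of a whole number, against 20% by chance. Multiples of a depth also give whole values, so, after a wider search had shown this, a depth was halved while over 75% of whole values were even: 45.0% to 53.2% were even at the depths used and 91.1% to 94.0% at double those.

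The 10 genes and all lists were chosen with earlier results of these data known, and some lists share genes. All 10 genes are named. In other lists up to 4 called genes per direction were named by adjusted p, and the 5 genes most like the members by correlation. Promoters were to be printed for members with a full element, and Fos, Fosb and Junb were added after the sequences were seen. Alternatives covered the pseudocount (0.1), filters (none, 5 FPKM), scaling, limma settings, a block for replicate number, single transcript entries and each library left out.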

Additional observations from a re-analysis of the deposited data

Results flagged for a closer look

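Among 26 groups of 4 libraries examined for the 10 genes, Kdm1a, Gm11175 and BC042782, a library far from the other 3 was found in 2, and chance gives about 1 in 20. Kdm1a was at 92.0 FPKM in control replicate 3, against 48.1 to 54.0 FPKM in the other controls. Gm11175, antisense within Jund, was at 14.7 FPKM in KO replicate 1, against 23.0 to 23.9 FPKM in the other KO libraries. None of the 10 genes themselves had such a library.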

How the results depend on the processing

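Ier2 kept its rise under every alternative run (log2 change 0.87 to 1.74), and Jund its fall under every one but equal totals. Libraries left out in turn gave 1 to 2 members called higher and 1 called lower. Equal totals gave 7 higher and 0 lower, against 9549 and 151 of all 13483 genes. With the replicate block 4 rose (Ier2, Fos, Jun and Junb) and 2 fell (Jund and Klf6). Over all 13483 genes the block gave 2983 rises and 1408 falls. Quantile normalization gave 2 falls, Jund and Klf6, against 2648 of all 13483 genes. The cause of these differences was not tested.

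Whether the replicate numbers pair the samples cannot be told from these values. Over all genes, departures of same-numbered libraries correlated at 0.224, -0.119, -0.133 and -0.093 for replicates 1 to 4. Of the KO libraries only replicate 1 correlated best with its own number. KO replicates 2, 3 and 4 correlated best with control replicates 4 (0.25), 2 (0.213) and 1 (0.18). For the 9 tested members, the mean departure was below the group mean in replicates 1 and 2 and above it in 3 and 4, in each group. With the block the adjusted p was 0.0135 for Fos, 0.0322 for Jun, 0.0304 for Junb and 0.0343 for Klf6, and Crem (0.0679), Klf3 (0.057) and Egr2 (0.0542) were not called.

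Dusp1 turned sign after median-ratio scaling (-0.06), quantile normalization (-0.04), small RNA removal (-0.04) and without control replicate 2 (-0.03), where other libraries left out gave values up to 0.21. With equal totals the sign turned for Klf6 (0.14), Arc (0.04), Tiparp (0.33), Irf1 (0.12), Map2k7 (0.31), Rps6ka1 (0.28), Elk1 (0.14), Mafg (0.40), Klf13 (0.25), Egr2 (0.03), Klf10 (0.36) and Dusp18 (0.16). Rises among other immediate early genes, 7 as reported, numbered 11 without a filter, 23 with equal totals, and 4 after small RNA removal, quantile or median-ratio scaling or a filter at 5 FPKM. Their falls, 16 as reported, numbered 0 with equal totals and 10 for the most abundant transcript entries. Equal totals gave 9549 rises and 151 falls over all 13483 genes. Libraries left out in turn gave 4 to 7 rises and 9 to 16 falls.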

Other observations

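Of 15 tested relatives of Egr1 and Klf6, 5 fell, 1 rose and 9 were not called, or 33.3% lower and 6.67% higher, against 12.1% and 25.3% over all genes. The median log2 change was -0.25, against 0.09 over all genes. With equal totals 2 rose and 0 fell by limma, 0 also at an unadjusted p under 0.05, and there Egr2, Klf10 and Klf13 turned sign. That scaling gave 9549 rises and 151 falls over all 13483 genes. Of the 5, Egr4, Egr2, Klf10 and Klf4 were also among the other immediate early genes. Egr4, of the EGR family, was at 14.0, 34.0, 22.0 and 21.8 FPKM in KO replicates 1 to 4, against 34.1, 38.1, 48.5 and 51.0 FPKM in control replicates 1 to 4 (log2 change -0.92, limma adjusted p = 0.0136). The KO libraries were all below the controls, with KO replicate 2 just under control replicate 1, and with equal totals Egr4 was not called (log2 change -0.22, adjusted p = 0.419). Egr2, needed for Schwann cell myelination, was 1.64-fold lower in KO with overlapping libraries (log2 change -0.65, adjusted p = 0.0324). It lost its call without KO replicates 1, 3 or 4 or control replicates 1, 3 or 4 (adjusted p 0.052 to 0.088). Klf13 averaged 8.61 ± 1.18 FPKM in KO and 11.7 ± 0.172 in control libraries, and Klf10 41.7 ± 6.84 and 53.1 ± 4.67. Klf10 kept its call without KO replicate 2 and lost it without any other single library (adjusted p 0.0597 to 0.115). Klf3, the riser, averaged 2.94 ± 0.378 FPKM in KO and 2.15 ± 0.306 in control libraries, and was not called without KO replicates 1, 3 or 4 or control replicates 1, 2 or 4 (adjusted p 0.0752 to 0.111). The Klf3 call was also lost after median-ratio scaling (log2 change 0.22, adjusted p = 0.164), quantile normalization (0.13, 0.326) and small RNA removal (0.23, 0.283).

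Of 17 tested relatives of Dusp1, 3 fell, 4 rose and 10 did not pass, or 17.6% lower and 23.5% higher, near the 12.1% and 25.3% over all genes. With equal totals 9 rose and 0 fell by limma, 0 also at an unadjusted p under 0.05. That scaling gave 9549 rises and 151 falls over all 13483 genes. Dusp7, a phosphatase of ERK, was at 7.03, 7.97, 7.64 and 6.81 FPKM in KO replicates 1 to 4, against 15.0, 11.7, 16.3 and 15.9 FPKM in control replicates 1 to 4, and the groups did not overlap (log2 change -0.90, adjusted p = 0.000331). With equal totals neither Dusp7 (-0.25, adjusted p = 0.381) nor Dusp2 (-0.10, adjusted p = 0.723) was called. Dusp2 averaged 3.21 ± 0.532 FPKM in KO and 5.78 ± 1.31 in control libraries. Dusp18 averaged 4.67 ± 0.818 and 6.76 ± 0.697 FPKM in KO and control libraries, and was not called without control replicate 3 (adjusted p = 0.0512). The 4 that rose were Dusp19 (6.78 ± 1.10 FPKM in KO and 2.73 ± 0.374 in control libraries), Dusp22 (18.9 ± 1.92 and 10.9 ± 0.896), Dusp26 (2.80 ± 0.418 and 1.10 ± 0.304) and Dusp14 (16.4 ± 1.43 and 10.6 ± 1.15).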
